A study of Mus musculus with 6 samples.

Results

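Resident macrophage genes were followed by the 10 symbols *Cd163*, *Retnla*, *F13a1*, *Lyve1*, *Folr2*, *Timd4*, *Mrc1*, *Cbr2*, *Mgl2* and *Clec10a*, out of 53819 genes listed in the count table. The set was chosen because the *Retnla* and *Cd163* counts were lower in DTR libraries, so the difference between genotypes in these 10 genes is given as a description, with no test. All 10 had counts in each library and were among the 17496 genes kept by the low-count filter of edgeR. Bulk RNA-seq was performed on healing flexor digitorum longus (FDL) tendons of 3 Scx-Cre+; DTR F/+ mice (DTR) and 3 Scx-Cre-; DTR F/+ littermates (WT), with 1 tendon per library. Both groups carried the floxed diphtheria toxin receptor allele and both received diphtheria toxin (DT), 100 ng per day in 5 daily injections from D14 to D18 after tendon injury and repair. Cre under control of *Scx*, a tendon transcription factor, removes the block on the receptor in every cell with a history of *Scx* expression, so DT is directed at that lineage as a whole rather than at 1 of its subsets. How many of its cells were lost was not measured in these libraries. The mice were males and females of 10 to 12 weeks at surgery. *Xist*, which female cells express, was above background in 1 WT library (replicate 2) and 2 DTR libraries (replicates 2 and 3), so sex was unequal between the groups. Tendons were harvested at D28 post-surgery by the study's methods, while the sample titles count the same 28 days from depletion, and the day after surgery is used here.

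Tissue-resident macrophages are long-lived phagocytes that lie along vessels and in the connective tissue of most organs, tendon included. They take up haemoglobin, hyaluronan fragments, mannosylated glycoproteins and dying cells through a set of scavenger receptors and lectins, and several of their genes are induced by IL-4 and IL-13 through the transcription factor STAT6 or by glucocorticoids. Monocyte-derived macrophages that enter a wound share the general macrophage genes but carry less of this receptor set, and lymphatic endothelium, dendritic cells, platelets and adipose tissue each express 1 or more of the same genes.

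Libraries held 42744138 to 48854310 gene counts. Tendon identity was evident in both groups, with *Tnmd* (tenomodulin) at 994 RPKM in WT and 1230 RPKM in DTR, where RPKM is reads per kilobase of merged exons, scaled to effective library size. Macrophage identity was evident as well, since *Csf1r*, the receptor for colony-stimulating factor 1, had 65.1 RPKM in WT and 58.9 RPKM in DTR, and *C1qa* had 347 RPKM in both. The median log2 fold change over 8 tendon genes was 0.32, with 0 called by edgeR and 1 (*Thbs4*, 0.65) called higher by DESeq2. *Kera* (0.43) was second, and *Fmod* (-0.17) and *Mkx* (0.15) were lowest. *Scx* itself was higher in each DTR library, at 2201, 2703 and 3063 normalized counts for WT and 3475, 3406 and 3531 for DTR (log2 fold change 0.39, SE 0.12). Skeletal muscle RNA differed between libraries. A list of 20 muscle genes took 2.87%, 2.58% and 2.08% of counts across WT replicates 1, 2 and 3, and 0.352%, 2.52% and 0.664% across DTR replicates 1, 2 and 3 (median log2 fold change -1.19, 0 called by edgeR or DESeq2), with *Pygm* (-1.83) and *Atp2a1* (-1.69) lowest and *Casq1* (-0.29) and *Mylpf* (-0.18) highest. DTR replicate 2 therefore resembled WT in muscle content, and the values of the 10 genes are given below with this library set apart where it stood apart. A list of 15 keratinocyte genes took from 0.00483% to 0.402% of counts, highest in WT replicates 1 and 2 (median log2 fold change -3.07, 0 called by edgeR and 1, *Sbsn*, by DESeq2), with *Krt1* (-5.10) and *Krt10* (-4.87) lowest and *Trp63* (-1.64) and *Sbsn* (-1.51) highest. Only symbols were used to match genes, and the strand setting of the read counting is not given in the sources used here, so overlapping and antisense genes are uncertain.

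Of the 10 genes, 9 had a lower fitted level in DTR than in WT and 1, *Mrc1*, had a slightly higher one. The median log2 fold change (DTR minus WT) was -0.65, against 0.01 over all tested genes, whose quartiles were -0.18 and 0.15. In 3 of the 10 (*Retnla*, *Cd163* and *Mgl2*) each DTR library lay below each WT library, a pattern found in 7.85% of all tested genes. edgeR's quasi-likelihood test called 0 of the 17496 tested genes (0%) at an adjusted p of 0.05 (smallest adjusted p 0.199), although 1918 (11%) had an unadjusted p under that threshold, and it called 0 of the 10. DESeq2 called *Retnla* and *Cd163* lower, beside 1.53% of the 17564 genes it gave an adjusted p. Since the genes were chosen on this contrast, these counts describe the choice. In bulk tissue, fewer cells of a type and less RNA per cell cannot be told apart.

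**Figure D1:**
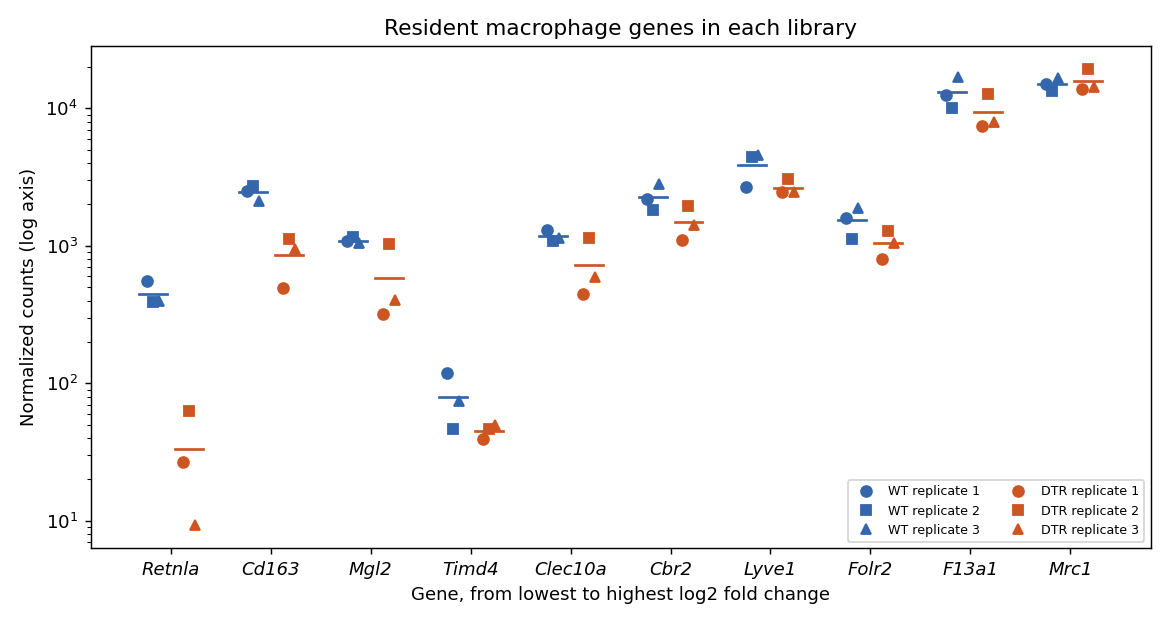
Normalized counts (TMM-normalized, at the mean library size; log axis) of the 10 resident macrophage genes in each library, ordered by log2 fold change. Points are single tendons (blue WT, orange DTR; circle, square and triangle for replicates 1, 2 and 3) and bars are group means of 3. *Retnla* and *Cd163* show a gap between the groups, *Mrc1* shows none, and the orange squares of DTR replicate 2 are the highest DTR values for 9 of the 10 genes.

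*Retnla* encodes resistin-like molecule alpha, a small secreted protein of alternatively activated macrophages that is also made in adipose tissue. Its normalized counts were 551, 392.5 and 393.8 across WT replicates 1, 2 and 3, and 26.79, 63.11 and 9.245 across DTR replicates 1, 2 and 3. No DTR library came near a WT library: the lowest WT value was 6.22 times the highest DTR value. The means were 445.8 ± 91.1 for WT and 33.05 ± 27.5 for DTR (SD, n = 3 each), a 13.5-fold difference, with a fitted log2 fold change of -3.74 (SE 0.66). The DTR libraries spread more among themselves than the WT libraries, 6.83-fold from lowest to highest against 1.4-fold. DTR replicate 3 held 9 raw counts, with an exact 95% Poisson interval from 4.12 to 17.1, and WT replicate 3, the lowest in WT by raw counts, held 379, with an interval from 342 to 419. Reads of libraries without molecular identifiers are not independent molecules, so these intervals cover counting error only. The neighbouring genes *Retnlb* and *Retnlg* are close relatives whose reads could be exchanged with those of *Retnla* in counting. *Retnlb* had no count in any library, while *Retnlg*, a neutrophil gene, had 18.26, 20.71 and 10.39 normalized counts for WT and 107.1, 18.17 and 4.109 for DTR, so it did not share the direction of *Retnla* in DTR replicate 1.

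STAT6 and C/EBP proteins are known to act together on the *Retnla* promoter after IL-4, so the 250 bases before its start site are shown with letters of both types in capitals. The first capitals match a STAT6-type motif (TTCNNNNGAA), which begins at position -145 from the start, and the second match a C/EBP-type motif (TTGCNNAA) on either strand, which begins at position -134. The window lies at chr16:48842359-48842608 on the plus strand of GRCm38.p6 (RefSeq).
Retnla: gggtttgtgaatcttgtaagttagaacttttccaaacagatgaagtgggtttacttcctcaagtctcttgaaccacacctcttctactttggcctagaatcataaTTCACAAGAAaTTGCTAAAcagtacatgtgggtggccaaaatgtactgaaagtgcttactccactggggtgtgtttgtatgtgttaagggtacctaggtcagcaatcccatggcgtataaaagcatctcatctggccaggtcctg

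Such windows, extended to 50 bases after the start, were matched by symbol for 8 of the 10 genes in RefSeq. The STAT6-type letters were in 2 of the 8 (*Retnla* and *Cbr2*, where they begin 24 bases after the start), and in 8.01% of all 27025 genes with a window. The C/EBP-type letters were in 1 of the 8 (*Retnla*) and in 12.2% of all such genes. A PU.1-type motif (GAGGAA, either strand), for the factor that drives much of the myeloid programme, was in 5 of the 8 and in 31.3% of all such genes, and an AP-1-type motif (TGANTCA) was in 1 of the 8 (*Folr2*) and in 8.97% of all such genes. *Retnla* was thus the single gene of the 8 with STAT6-type and C/EBP-type letters side by side, without overlap. A match is a run of letters and does not show that a factor bound there.

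*Cd163* encodes the scavenger receptor for haemoglobin bound to haptoglobin and is induced by glucocorticoids and IL-10. Its normalized counts were 2512, 2713 and 2122 across WT replicates 1, 2 and 3, and 489.4, 1123 and 944.1 across DTR replicates 1, 2 and 3. The groups did not overlap, and the lowest WT value was 1.89 times the highest DTR value. The means were 2449 ± 300.6 and 852 ± 326.5 (SD, n = 3 each), a 2.87-fold difference, with a log2 fold change of -1.52 (SE 0.31). DTR replicate 1 was at 20% of the WT mean, DTR replicate 2 at 45.8% and DTR replicate 3 at 38.5%. The promoter of *Cd163* is shown for contrast with that of *Retnla*, since neither the STAT6-type nor the C/EBP-type letters were found in it. The window lies at chr6:124304401-124304650 on the plus strand of GRCm38.p6.
Cd163: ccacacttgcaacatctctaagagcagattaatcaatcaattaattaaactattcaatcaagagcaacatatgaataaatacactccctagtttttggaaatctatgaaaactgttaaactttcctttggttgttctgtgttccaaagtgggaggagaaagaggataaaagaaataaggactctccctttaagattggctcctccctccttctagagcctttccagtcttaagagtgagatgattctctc

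The other receptors of the set differed less. *Mrc1*, the mannose receptor CD206, which clears mannosylated glycoproteins and collagen fragments, had 15120, 13300 and 16560 normalized counts for WT and 13820, 19410 and 14340 for DTR. The groups overlapped, with means of 14990 ± 1637 and 15860 ± 3090 (SD, n = 3 each) and a log2 fold change of 0.08 (SE 0.16). Its sign turned with the fit: the value was -0.09 without DTR replicate 2 and -0.02 with keratinocyte content as a covariate.

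*Lyve1*, a hyaluronan receptor of perivascular macrophages and of lymphatic endothelium, had 2690, 4411 and 4597 normalized counts for WT and 2457, 3037 and 2464 for DTR. WT replicate 1 lay among the DTR libraries, so the groups overlapped, and the log2 fold change was -0.56 (SE 0.21). In lymphatic endothelium *Lyve1* accompanies *Prox1*, the transcription factor that defines these vessels. *Prox1* had 239.5, 618.5 and 507.1 normalized counts for WT and 434.8, 550.8 and 395.5 for DTR, lowest in the same WT replicate 1 in which *Lyve1* was lowest of WT. Over the 9 lymphatic genes of the list the median log2 fold change was -0.07, with 0 called by edgeR and 1 (*Tbx1*) called lower by DESeq2, and of those with at least 50 normalized counts on average *Pdpn* (0.36) and *Nts* (0.26) were highest and *Tbx1* (-1.32) and *Reln* (-0.36) lowest. The part of lymphatic vessels in the *Lyve1* values was not tested.

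*Folr2*, a folate receptor that marks resident macrophages in many tissues, had 1587, 1114 and 1890 normalized counts for WT and 804.6, 1275 and 1050 for DTR. DTR replicate 2 exceeded WT replicate 2, so the groups overlapped, and the log2 fold change was -0.55 (SE 0.24). *Folr1*, its neighbour in the genome and an epithelial folate receptor, was higher in each DTR library, at 11.16, 19.77 and 21.82 normalized counts for WT and 22.67, 69.81 and 65.75 for DTR. The lowest of the 10 in WT was *Timd4*, the phosphatidylserine receptor of self-renewing resident macrophages that bind dying cells, with 118.7, 46.13 and 73.77 normalized counts for WT and 39.15, 46.86 and 49.31 for DTR. WT replicates 1 and 3 lay above each DTR library and WT replicate 2 lay among them, so the groups overlapped. The log2 fold change was -0.82 (SE 0.38) with all libraries. It was -0.41 without WT replicate 1, -1.09 without WT replicate 2 and -0.87 without WT replicate 3.

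*Mgl2* and *Clec10a* encode the paired lectins CD301b and CD301a, which bind galactose-type sugars and are carried by macrophages and by a subset of dermal dendritic cells. *Mgl2* had 1076, 1163 and 1041 normalized counts for WT and 320.4, 1027 and 400.6 for DTR. The groups did not overlap, but DTR replicate 2 lay just below the lowest WT library, at 93.9% of the WT mean, whereas DTR replicates 1 and 3 were at 29.3% and 36.6%. *Clec10a* had 1307, 1076 and 1131 normalized counts for WT and 445.1, 1148 and 593.8 for DTR, with DTR replicate 2 inside the WT range. The log2 fold changes were -0.91 (SE 0.47) and -0.68 (SE 0.36), and they became -1.60 and -1.17 without DTR replicate 2. Both genes lie next to each other and are closely related, so the counting could exchange reads between them. The number of *Mgl2* counts per 100 *Clec10a* counts was 82.3, 108 and 92.1 in WT and 72, 89.5 and 67.5 in DTR, so within each library the pair stayed close.

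The 2 remaining genes encode enzymes. *F13a1*, the transglutaminase subunit of coagulation factor XIII, which cross-links fibrin and is made by macrophages and platelets, had 12610, 10090 and 16960 normalized counts for WT and 7388, 12790 and 7961 for DTR. The groups overlapped through DTR replicate 2, and the log2 fold change was -0.50 (SE 0.28). Of 8 platelet and megakaryocyte genes, 5 passed the filter with a median log2 fold change of 0.12 and 0 called. The platelet receptor genes *Gp9* and *Gp6* had at most 5.195 normalized counts in any library. *Gp1ba*, another platelet receptor gene, had 14.21, 28.24 and 8.313 for WT and 0, 15.3 and 1.027 for DTR (log2 fold change -1.59, SE 1.11). Of the listed genes with at least 50 normalized counts on average, *Itga2b* (0.21) and *Itgb3* (0.12) were highest and *Ppbp* (-0.39) and *Treml1* (0.12) lowest. The part of platelets in the *F13a1* values was not tested. *Cbr2*, a carbonyl reductase that marks resident macrophages in skin and other connective tissue, had 2178, 1837 and 2804 normalized counts for WT and 1099, 1946 and 1416 for DTR, again with DTR replicate 2 inside the WT range. Its log2 fold change was -0.61 (SE 0.25).

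Per length, *Mrc1* was the most abundant of the 10 in WT at 51.3 ± 5.60 RPKM (SD, n = 3), followed by *F13a1* at 42.8 ± 11.2, *Cbr2* at 37.3 ± 8.06, *Lyve1* at 29.1 ± 7.85, *Folr2* at 21.6 ± 5.52, *Retnla* at 16.2 ± 3.31, *Mgl2* at 11.4 ± 0.66, *Cd163* at 9.77 ± 1.20, *Clec10a* at 8.80 ± 0.91 and *Timd4* at 0.80 ± 0.37. The ranges over 3 libraries overlapped between each gene and the next from *Mrc1* down to *Retnla*, and between *Cd163* and *Clec10a*, and *Mgl2* and *Cd163* met at 10.8, so those neighbours in the order were not separated by their spread. *Retnla* (lowest 14.3) was separated from *Mgl2* (highest 12.1), and *Clec10a* (lowest 8.09) from *Timd4* (highest 1.19). In DTR *Retnla* went by its mean from the sixth place to the ninth, at 1.20 ± 1.00 RPKM, while *Mrc1* stayed at the top, at 54.2 ± 10.6 RPKM. The *Retnla* range in DTR (0.336 to 2.3) overlapped those of *Timd4* (0.393 to 0.494) and *Cd163* (1.95 to 4.48). Its place beside them was therefore not separated by the spread. Both receptors that bind glycoproteins and haemoglobin complexes can be set against each other within a library, which needs no scaling between libraries. *Cd163* had 16.6, 20.4 and 12.8 counts per 100 *Mrc1* counts in WT and 3.54, 5.78 and 6.58 in DTR. *Retnla* had 3.64, 2.95 and 2.38 counts per 100 *Mrc1* counts in WT and 0.19, 0.33 and 0.06 in DTR. For *F13a1* the corresponding values were 83.4, 75.9 and 102 in WT and 53.5, 65.9 and 55.5 in DTR. The groups did not overlap in these 3 ratios. For *Lyve1* the values were 17.8, 33.2 and 27.8 in WT and 17.8, 15.6 and 17.2 in DTR. There WT replicate 1 and DTR replicate 1 were equal after rounding, with DTR marginally lower in the raw counts. By raw counts *Folr2*, *Cbr2*, *Clec10a*, *Mgl2* and, by a narrow margin, *Timd4* also had each DTR library below each WT library against *Mrc1*. The separation was thus not particular to the ratios printed here. Of all tested genes, 7.93% had each DTR library below each WT library when set against *Mrc1*. These ratios, too, come from the contrast on which the genes were chosen.

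Genes carried by macrophages of any origin were at similar levels in both genotypes. In a list of 24 broad macrophage genes the median log2 fold change was 0.01, 0 were called by edgeR or DESeq2, and 1 had an unadjusted p under 0.05. In 0 of the 24 did each DTR library lie below each WT library, and in 1 (*Msr1*, the class A scavenger receptor) each lay above (log2 fold change 0.43, SE 0.10). *Adgre1*, which encodes F4/80, had 4945, 3901 and 4843 normalized counts for WT and 5129, 5664 and 4164 for DTR. The highest log2 fold changes were those of *Msr1* and *Cd14* (0.31), and the lowest those of *Csf1r* (-0.14) and *Laptm5* (-0.07). The list's direction was not stable, since its median was between -0.05 and 0.16 when single libraries were left out.

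**Figure D2:**
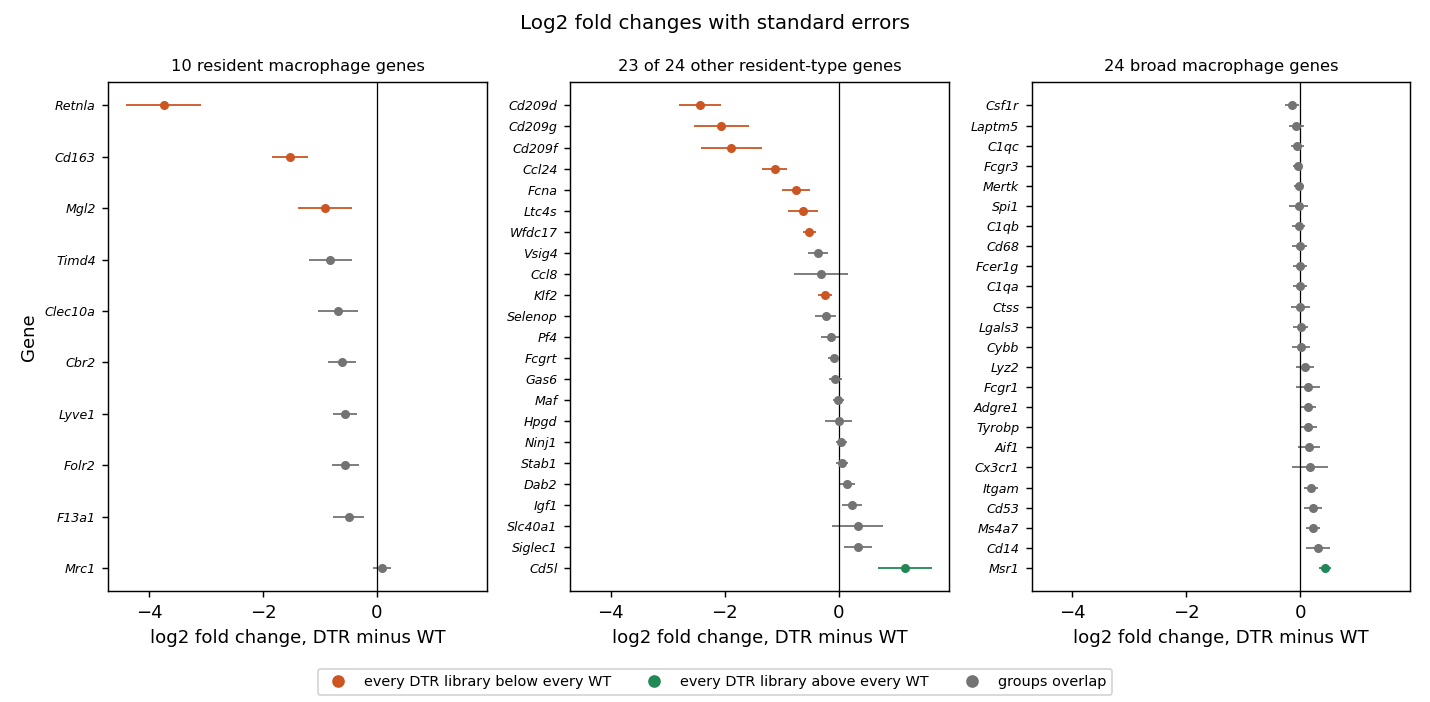
Log2 fold changes (DTR minus WT, x axis) with standard errors from the edgeR fit (n = 3 per group) for the 10 resident macrophage genes, 23 of the 24 other resident-type genes and 24 broad macrophage genes. Colours give whether the libraries of the groups overlap; the broad genes lie within -0.14 and 0.43, and the 3 *Cd209* genes reach between -1.88 and -2.43.

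The 10 genes were then expressed relative to the broad list, as log2 CPM (counts scaled to library size) minus the mean of the 24 broad genes in the same library. The median difference between the group means was -0.74 over the 10. For *Cd163* the relative levels (WT mean at 0) were -0.15, 0.31 and -0.16 in WT and -2.54, -1.18 and -1.31 in DTR. For *Clec10a* they were -0.03, 0.04 and -0.01 in WT and -1.61, -0.09 and -0.92 in DTR. For *Mrc1* they were -0.18, -0.01 and 0.18 in WT and -0.34, 0.32 and -0.01 in DTR. On this scale 6 of the 10 (*Cd163*, *Retnla*, *Folr2*, *Timd4*, *Cbr2* and *Clec10a*) had each DTR library below each WT library, some by a narrow margin, as for *Clec10a*, and this held for 7.28% of all tested genes. The median difference was -0.79 with *Adgre1* as the reference, with 8 of the 10 not overlapping (8.35% of all tested genes), and -0.52 with *Csf1r*, with 3 of the 10 not overlapping (3.07% of all tested genes). These counts, too, come from the contrast on which the genes were chosen. The number of genes without overlap thus depended on the reference gene, whereas *Retnla* and *Cd163* did not overlap with any of the 3 references.

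**Figure D3:**
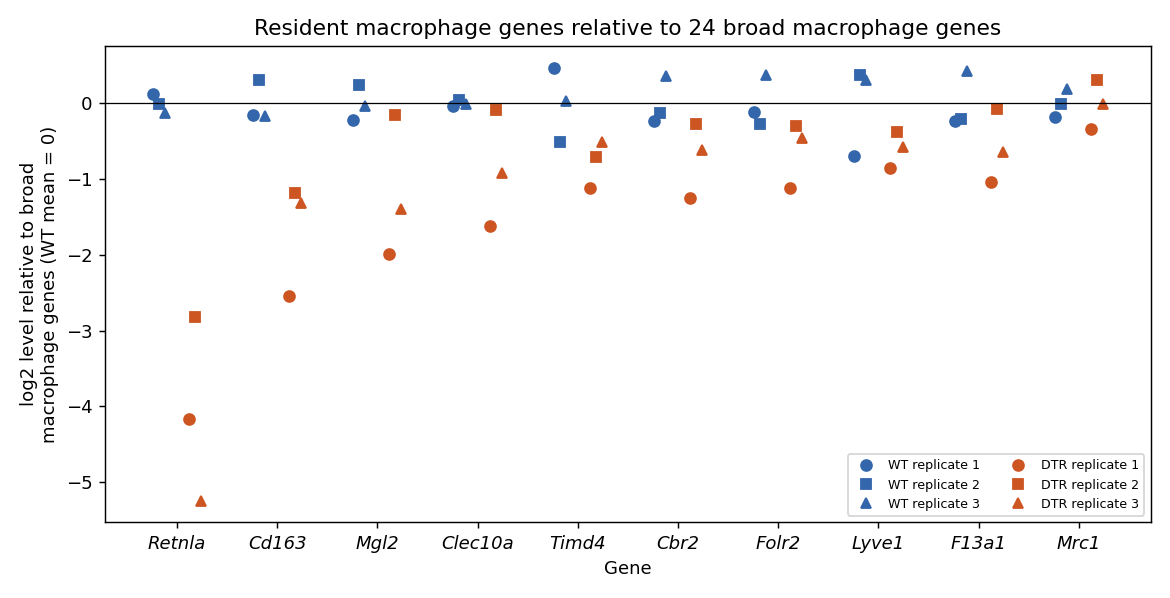
Level of each resident macrophage gene relative to 24 broad macrophage genes in the same library (log2, y axis; WT mean set to 0), ordered by the difference between group means. Points are single tendons (blue WT, orange DTR; circle, square and triangle for replicates 1, 2 and 3). *Retnla* lies between -2.83 and -5.24 in DTR, and *Mrc1* between -0.34 and 0.32.

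A separate list of 24 other resident-type macrophage genes, none of them among the 10, held genes on both sides. edgeR called 0 of the 24, with adjusted p-values from 0.199 to 0.998, 7 lower and 1 higher at an unadjusted p under 0.05, and the list's median log2 fold change was -0.15. DESeq2 called 5 lower and 0 higher: *Cd209d*, *Cd209f*, *Cd209g*, *Ccl24* and *Wfdc17*. In 8 of the 24 each DTR library lay below each WT library, against 7.85% of all tested genes, and in 1 (*Cd5l*, at no more than 21.99 normalized counts) each lay above. The genes named here for not overlapping or for their DESeq2 call were picked after their values were seen, apart from *Cd209d* and *Cd209f*, the lowest of the list among genes with at least 50 normalized counts on average.

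The *Cd209* genes encode C-type lectins related to DC-SIGN, and the 3 in the list are known from resident macrophages. *Cd209d* had 175.5, 92.25 and 169.4 normalized counts for WT and 28.85, 33.47 and 18.49 for DTR, a 5.41-fold difference of the means (log2 fold change -2.43, SE 0.37, edgeR adjusted p = 0.199). *Cd209f* had 219.2, 83.78 and 113.3 in WT and 15.45, 50.68 and 46.23 in DTR (log2 fold change -1.88, SE 0.54, edgeR adjusted p = 0.353). *Cd209g*, its neighbour, had 66.97, 38.6 and 40.52 in WT and 5.151, 17.21 and 12.33 in DTR (log2 fold change -2.06, SE 0.48, edgeR adjusted p = 0.293). In all 3 the groups were separate, DTR replicate 2 included, but the genes are close paralogues whose reads could be exchanged in counting. *Ccl24*, the chemokine eotaxin-2, had 505.3, 389.7 and 612 normalized counts for WT and 190.6, 266.8 and 234.2 for DTR (log2 fold change -1.12, SE 0.21, edgeR adjusted p = 0.272).

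*Wfdc17*, a small secreted protein gene of macrophages, had 3085, 3227 and 2573 normalized counts for WT and 1849, 2210 and 2162 for DTR (log2 fold change -0.51, SE 0.12, edgeR adjusted p = 0.275).

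The first genes of the list as written overlapped between genotypes. *Stab1*, which encodes the scavenger receptor stabilin-1, had 8391, 8248 and 8849 normalized counts for WT and 8916, 9858 and 7756 for DTR, and *Pf4*, a chemokine of platelets and resident macrophages, had 3997, 3806 and 5050 in WT and 3302, 4786 and 3552 in DTR. *Gas6*, a bridging ligand for dying cells, had a log2 fold change of -0.06. The highest of the list at 50 or more normalized counts on average were *Siglec1* (0.34, SE 0.24) and *Slc40a1* (0.33, SE 0.45), the iron exporter ferroportin. *Maf*, a transcription factor of mature macrophages, had a log2 fold change of -0.01, with overlap.

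Genes of inflammatory and monocyte-derived macrophages gave 0 edgeR calls among 19, with a median log2 fold change of 0.15 and 4 higher and 0 lower at an unadjusted p under 0.05. DESeq2 called *Ptgs2*, which encodes cyclooxygenase-2, and the costimulatory ligand *Cd80* higher. In 5 of the 19, among them *Ptgs2*, *Cd80* and *Cxcl2*, each DTR library lay above each WT library. The share of all tested genes in that direction was not counted. In 0 of the 19 did each DTR library lie below each WT library, against 7.85% of all tested genes. *Ccr2*, the chemokine receptor of recruited monocytes, had 8817, 5641 and 7454 normalized counts for WT and 7265, 7131 and 6607 for DTR. *Cxcl2* (log2 fold change 3.07, SE 1.14) and *Trem1* (2.03, SE 1.07) were the highest of the list and *Ly6c2* (-0.51, SE 0.50) and *Fabp5* (-0.34, SE 0.53) the lowest. The *Cxcl2* values were led by 1 library, with 1522 normalized counts in DTR replicate 1, against 195.1 and 145.9 in the other DTR libraries and 44.68 to 89.3 in WT. That library was also the highest in the neutrophil genes *S100a8* (3511, against 152.7 to 557.5 elsewhere), *S100a9*, *Cxcr2* (466.7, against 29.09 to 83.21 elsewhere) and *Mmp8* (83.45, against 16 to 21.99 elsewhere). The median over the 4 of 10 neutrophil genes that passed the filter was 1.90 on the log2 scale, with 0 called. The granule genes *Mpo* and *Elane* had at most 5.136 normalized counts. Whether neutrophils contributed to the resident macrophage values of DTR replicate 1 was not tested.

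The signals upstream of these genes were compared next. Of 26 genes for IL-4 and IL-13, their receptors and STAT6 targets, 22 passed the filter, edgeR called 0, DESeq2 called 1 higher (*Egr2*) and 1 lower (*Ccl24*), 1 was higher and 2 were lower at an unadjusted p under 0.05, and the median log2 fold change was -0.11. The ligands were near the limit of detection, *Il4* at 0 to 3.825 normalized counts and *Il13* at 0 to 6.088. *Il4ra*, the shared receptor chain, was at 10610, 8011 and 6070 in WT and 14470, 9283 and 9123 in DTR, and *Stat6* differed by -0.01 (SE 0.08). Among the targets *Ccl24* and *Ccl22* (-0.75, SE 0.46) were the lowest and *Egr2* (0.74, SE 0.18) and *Chil3* (0.57, SE 0.52) the highest, while *Arg1*, the arginase of alternatively activated macrophages, ranged from 25.98 to 482.9 in WT and from 181.7 to 565.6 in DTR. *Retnla* and *Egr2* are both known STAT6 targets, and they lay on opposite sides without overlap. *Alox15*, another such target, was singled out after its values were seen: it had 7.103, 8.472 and 10.39 normalized counts for WT and 0, 0.956 and 1.03 for DTR, below the filter.

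For *Cd163* the glucocorticoid and IL-10 list gave 0 edgeR calls and 0 at an unadjusted p under 0.05 among 15 genes, with a median log2 fold change of 0.07. *Nr3c1*, the glucocorticoid receptor, differed by 0.08 (SE 0.14), and *Il10* was at 20.61 to 33.9 normalized counts. *Zbtb16*, a glucocorticoid-induced transcription factor, was lowest at -1.53 (SE 0.63), with 562.2, 711.7 and 547.6 normalized counts for WT and 101, 421.7 and 106.8 for DTR, and *Tsc22d3*, another glucocorticoid-induced gene, was next at -0.16 (SE 0.24). *Hsd11b1* (0.41) and *Per1* (0.38) were highest. Of 14 genes for handling of haemoglobin and iron, 0 were called by edgeR or DESeq2, and the median log2 fold change was 0.01. *Hp*, the haptoglobin that CD163 binds in complex with haemoglobin, was at 3031, 2554 and 1825 normalized counts for WT and 4645, 1678 and 1297 for DTR, and *Hmox1*, which breaks down haem, differed by 0.20 (SE 0.23). *Hpx* (-0.41) and *Tfrc* (-0.29) were the lowest and *Slc40a1* and *Lrp1* (0.25) the highest of that list. Among 7 tested genes for colony-stimulating factors and their receptors 0 were called, with a median of 0.01, *Il34* (-0.35, SE 0.15) and *Csf1r* lowest, and *Csf3r* (0.83, SE 0.55) and *Csf1* (0.18, SE 0.13) highest.

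The structural relatives of the 10 genes gave no common direction. Of 21 listed, 20 were in the table and 17 passed the filter, edgeR called 0, 3 were higher and 2 lower at an unadjusted p under 0.05, and the median log2 fold change was 0.06. *Mrc2*, the fibroblast relative of *Mrc1*, was higher in each DTR library, at 10310, 9516 and 10410 normalized counts for WT and 18450, 10690 and 13100 for DTR (log2 fold change 0.48, SE 0.19). *Cd44*, the hyaluronan receptor of most cells, was also higher in each (0.38, SE 0.12), in contrast to *Lyve1*. The lowest at 50 or more normalized counts on average were *Ly75* and *Pla2r1*, both at -0.13. *Retn*, which encodes the adipocyte hormone resistin, was called lower by DESeq2 and was noticed after the values were seen: it had 15.22, 41.42 and 42.6 normalized counts for WT and 7.212, 9.563 and 5.136 for DTR.

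Genes of other cell types moved with part of the set. Adipocyte genes were lower in DTR: of 10 tested, edgeR called 0, DESeq2 called 4 lower, 7 had an unadjusted p under 0.05 and the median log2 fold change was -2.18. *Adipoq*, which encodes adiponectin, had 96.4, 187.3 and 273.3 normalized counts for WT and 17.51, 62.16 and 26.71 for DTR, and *Cfd*, which encodes adipsin, had 334.9, 752.1 and 1138 in WT and 83.45, 206.6 and 94.51 in DTR. *Lpl* (-0.0044) and *Fabp4* (-0.27), which other cells also express, were the highest. The summed list took 0.116% to 0.207% of counts in WT and 0.0328% to 0.143% in DTR, but 46.8% to 86.1% of that sum was *Car3*, which skeletal muscle also expresses. Without *Car3* the sum took 0.0249% to 0.0321% in WT and 0.0172% to 0.0277% in DTR, and the ranges overlapped. Most of this remaining sum was *Lpl* and *Fabp4*, so it says little about adipocytes. Gene by gene, 6 of the 10 tested had each DTR library below each WT library, against 7.85% of all tested genes. As *Retnla* is also made in adipose tissue, these values stand beside its own, and the part of fat in the *Retnla* difference was not tested. *Retnla* and *Adipoq* were both highest of DTR in replicate 2, and in WT replicate 1 *Retnla* was highest and *Adipoq* lowest of WT.

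Of 14 dendritic cell genes edgeR called 0, DESeq2 called 3 lower (*Cd74*, *H2-Aa* and *H2-Ab1*), 8 were lower at an unadjusted p under 0.05 and the median log2 fold change was -0.58. In 7 of the 14 each DTR library lay below each WT library, against 7.85% of all tested genes. The genes without overlap were mainly those of antigen presentation: *Cd74*, the invariant chain of MHC class II, which macrophages and B cells also express, had 30650, 23590 and 20410 normalized counts for WT and 17380, 13740 and 14820 for DTR (log2 fold change -0.70, SE 0.17). *Batf3* (-0.68) and *Siglech* (-1.05) did not overlap either. The defining genes *Itgax* (-0.11), *Flt3* (-0.42) and *Zbtb46* (0.02) overlapped, as did *Xcr1* (-0.08) and *Cd209a* (-0.70), and *Ccr7* (-1.24) and *Siglech* were the lowest. In DTR replicate 2 the lectin pair *Mgl2* and *Clec10a* was near the WT mean, and there *Cd74* was at its lowest of all 6 libraries and *Siglech* (56.42) at its highest of DTR. The part of dendritic cells in the lectin values was not tested. For mast and type 2 cell genes the median over 8 tested was -0.996 on the log2 scale, with 0 called by edgeR or DESeq2. The mast cell protease *Mcpt4* had 952.8, 1170 and 1055 normalized counts for WT and 172.1, 739.2 and 335.9 for DTR, and *Il1rl1* (-0.14) and *Rora* (-0.28) were the highest. *Gata3* had the lowest log2 fold change (-1.85, SE 1.13), but the groups overlapped. It had 186.7, 143.1 and 9.352 normalized counts for WT and 14.42, 17.21 and 62.66 for DTR. WT replicates 1 and 2, where it was high, also had the most keratinocyte RNA, and the part of skin in its values was not tested. Of 8 eosinophil genes 3 passed the filter and 0 were called, *Siglecf* and *Ccr3* had at most 52.54 normalized counts, and *Epx*, *Ear1* and *Ear6* were at 0 in each library.

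Muscle content differed among the DTR libraries in the same order as the lectins. DTR replicates 1 and 3, with the lowest muscle share, had the lowest *Mgl2* and *Clec10a*, and DTR replicate 2, with a WT-like muscle share, had WT-like levels of both. *Retnla* and *Cd163* were lower than in WT in this library too, at 14.2% and 45.8% of the WT mean. With muscle content as a covariate the log2 fold change was -0.15 for *Mgl2*, -0.04 for *Clec10a*, -0.13 for *F13a1* and -0.27 for *Cbr2*, and it was -2.98 for *Retnla*, -1.03 for *Cd163*, -0.65 for *Timd4*, -0.44 for *Lyve1*, -0.28 for *Folr2* and 0.33 for *Mrc1*. The median over the 10 was then -0.27. With *Xist* as a covariate the values were -3.76 for *Retnla* and -1.82 for *Cd163*, and the median was -0.64. With 2 of the 3 DTR libraries low in muscle, muscle content and genotype cannot be fully told apart.

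**Figure D4:**
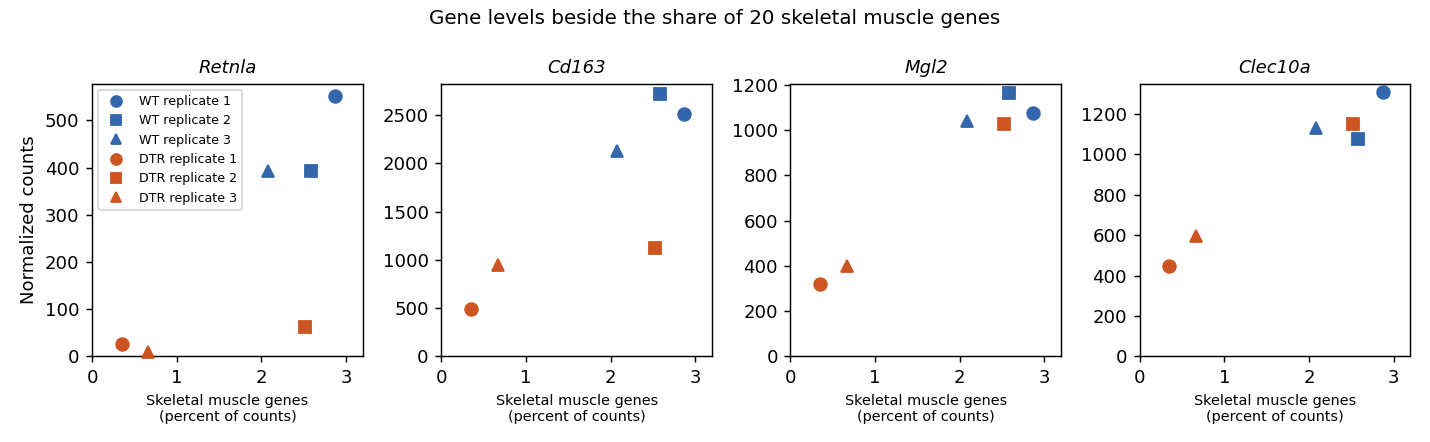
Normalized counts of *Retnla*, *Cd163*, *Mgl2* and *Clec10a* (y axes, starting at 0) against the share of counts taken by 20 skeletal muscle genes (x axes, percent) in each library. In DTR replicate 2 (orange square, 2.52% muscle) *Mgl2* and *Clec10a* lie with the WT libraries, while *Retnla* (63.11) and *Cd163* (1123) lie with the other DTR libraries.

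Across the 6 libraries the 10 genes were described together by the mean of their standardized log2 levels, which was 0.64, 0.21 and 0.92 across WT replicates 1, 2 and 3, and -1.21, 0.24 and -0.80 across DTR replicates 1, 2 and 3. DTR replicate 2 thus lay inside the WT range on this summary. Of 14399 other genes with at least 50 normalized counts on average, those with the most similar course over the 6 libraries (Pearson's r) were *Park7*, *Pcmt1*, *Ormdl2*, *Arhgef3*, *Pdcd2l*, *Polr3gl*, *Ttll11*, *Surf1*, *Rhot1* and *Mgst3*, with r from 0.981 to 0.992. These are ranked from many genes over 6 points that share the genotype, and their differences were small: *Park7* had 4338, 3928 and 4390 normalized counts for WT and 3153, 3967 and 3242 for DTR (log2 fold change -0.29, SE 0.11). Among the resident-type list r ranged from -0.882 for *Igf1* to 0.975 for *Ltc4s*, and among the broad list from -0.755 for *Msr1* to 0.749 for *Csf1r*.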

How the data were processed

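FDL tendon RNA (200 ng, TruSeq Stranded mRNA kit; the labels add a SMARTER kit) was sequenced single-end. Reads were cleaned (FastP) and assigned to genes (featureCounts) by the authors, who deposited whole counts with no normalization. The aligner, genome build, annotation and strand setting are not given in the sources used here. The authors also deposited a normalized signal, which was checked to be each count column divided by 1 size factor. The labels name DESeq2 1.22.1 as the submitters' tool.

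The main test was edgeR 4.0.16 in R 4.3.3 (filterByExpr, TMM, robust quasi-likelihood test, genotype as the single term, Benjamini-Hochberg adjustment over all 17496 genes). Each standard error was derived from the log2 fold change and its F statistic. DESeq2 1.42.0 and limma 3.58.1 gave alternatives. RPKM used merged exon lengths of GENCODE M21, matched by symbol for 92.8% of listed genes and all 10 of the set. Between 42744138 and 48854310 counts per library make counting error small for all but the lowest genes, and n = 3 limits precision. Each library is 1 tendon, and replicate libraries differed by a chi-square of 36.6 to 190 per degree of freedom, so none was a duplicate.

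The 10 genes and all 18 gene lists were chosen with earlier results of these data known. Since no listed gene passed the edgeR threshold, the rule for naming took from each list the 2 highest and the 2 lowest log2 fold changes among genes that averaged 50 or more normalized counts, and the first 3 genes as written could be named too. It left out 1 gene, which is not reported here. Alternatives were another normalization or test, filters on low counts, the replicate number as a block, muscle, keratinocyte and *Xist* covariates, deposited normalized counts in limma on the log2(value + 1) scale, other reference genes and each library left out.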

Additional observations from a re-analysis of the deposited data

How the results depend on the processing

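The number of genes called over all tested genes was 0 with edgeR, 466 with DESeq2 (197 higher, 269 lower, 2 of the 10 resident macrophage genes), 83 with no filter on low counts (0 of the 10) and 1 with the replicate number as a block (0 of the 10). Leaving out single libraries gave from 0 to 544 calls. The 544 came without DTR replicate 2 (103 higher, 441 lower, 3 of the 10). The cause was not tested. Calls among the 10 come from the contrast on which they were chosen and describe that choice. Libraries with the same replicate number did not deviate together (r of -0.188, -0.149 and -0.684), so the numbers give no pairing, and no library correlated best with its own number.

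The median log2 fold change of the 10 was -0.27 with muscle content as a covariate. In the other fits it was between -0.47 (without DTR replicate 1) and -0.85 (without DTR replicate 2). The number of the 10 without overlap ranged from 3 to 8 when single libraries were left out, with 6 without WT replicate 2 and 8 without DTR replicate 2, where 10.4% and 17.2% of all tested genes did not overlap in that direction. Relative to the broad list the median was between -0.49 and -0.88 over the same omissions. The median of the broad list crossed 0, from -0.05 (without WT replicate 2) to 0.16 (without WT replicate 1). Of 159 values of single genes under the alternatives 154 moved by less than the spread between replicates and 145 were below 0. The range when single libraries were left out was -4.62 to -3.30 for *Retnla*, -1.77 to -1.25 for *Cd163* and -0.09 to 0.17 for *Mrc1*. *Retnla* gave no value where at least 10 counts were required in every library. Groups of 3 were too small to test for outlying libraries, and depth limits *Retnla* in DTR replicate 3, *Il4*, *Il13* and *Alox15*.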
